A study of Mus musculus with 2 samples.

Results

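Melanocyte transcripts were followed through the immune cells of B16-F10 tumors, a transplantable mouse melanoma that makes pigment. The members are 7 genes taken by symbol, Pmel, Dct, Mlana, Tyr, Tyrp1, Mitf and Slc45a2, out of 31253 genes listed for each cell. Each was found as 1 row with its expected Ensembl identifier. In kept cells, those with mitochondrial genes under 10% of their unique molecular identifiers (UMIs) and over 200 genes detected, 3632 of 6284 cells of one library and 1738 of 5794 of the other held at least 1 UMI of a member.

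The study compared CD45+ immune cells from tumors of Irg1+/+ and Irg1-/- mice (C57BL/6 in the labels, backcrossed to C57BL/6J in the study's methods) to learn how Irg1, which encodes the enzyme that makes itaconate, shapes the tumor environment. Mice of both groups received 200000 B16-F10 cells under the skin of the right flank, and on day 10 a piece of 100 mm3 was taken from each tumor. Pieces from 3 mice of a genotype were pooled, 6000 CD45+ cells were sorted, and single-cell RNA was captured on the BD Rhapsody microwell system. Both groups received the same tumor line, so the deletion lay in the host. Each genotype is therefore 1 library without a replicate, and no test and no p-value is given between the genotypes or between cell classes. The file labelled Irg1+/+ holds 6408 cells and 43617546 UMIs, of which 6284 cells with a median of 4645.5 UMIs, mitochondrial genes included, were kept. The file labelled Irg1-/- holds 5896 cells and 36432067 UMIs, of which 5794 cells with a median of 4703 were kept. The libraries have 36 cell barcodes in common, none of them of a melanoma cell.

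The targeted gene, listed as Acod1, was lower in the library labelled Irg1-/- in some classes and higher in others, and had UMIs in every class of both. Neutrophil-like cells, where it was highest, had 1762 CPM (UMIs scaled by the summed non-mitochondrial UMIs of the same cells; 95% Poisson interval 1591 to 1946) under the Irg1+/+ label and 1415 CPM (1315 to 1520) under the other. It was also lower in eosinophil-like cells, at 645 (508 to 807) and 364 CPM (297 to 443), in monocyte-like cells, at 156 (142 to 171) and 116 CPM (105 to 127), and in mast cell-like cells, at 1025 and 148 CPM from 12 and 29 cells. Nonclassical monocyte-like cells had 130 and 91.6 CPM with overlapping intervals. Macrophage-like cells went the other way, at 89.8 (83.8 to 96.0) and 142 CPM (133 to 151), as did cDC1-like cells, at 29.3 (23.9 to 35.6) and 46.1 CPM (37.2 to 56.4). All kept cells together had 87.8 and 108 CPM, with 82 neutrophil-like cells in one library and 221 in the other. Summed over a gene, UMIs cannot tell a deleted exon from a kept one, so every direction between the libraries below rests on their labels.

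Pigment cells make melanin inside melanosomes. Pmel forms the fibrils on which melanin is laid down, Tyr, Tyrp1 and Dct are the enzymes of melanin synthesis, Slc45a2 is a transporter that keeps the melanosome lumen fit for tyrosinase, and Mlana is a small melanosome membrane protein that binds Pmel. Mitf is the basic helix-loop-helix factor that drives these genes by binding E-box sequences, and it is also used outside the pigment lineage, in mast cells, osteoclasts and macrophages. Lymphocytes do not make melanin, so the level read in them served here as the background of each library.

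The members lie on 7 chromosomes of GRCm38 and are all protein coding. Pmel (ENSMUSG00000025359, chr10:128704195-128720238, plus strand) overlaps Cdk2 and Dgka on the opposite strand, and Dct (ENSMUSG00000022129, chr14:118012790-118052244, minus strand) overlaps the antisense gene 4930435M08Rik. Mitf (ENSMUSG00000035158, chr6:97807052-98021349, plus strand) overlaps the pseudogene Gm15531. Reads of such pairs are uncertain, since the strand setting of the counting is not given in the sources used here. Mlana (ENSMUSG00000024806, chr19:29697824-29708634), Tyrp1 (ENSMUSG00000005994, chr4:80834123-80851719) and Slc45a2 (ENSMUSG00000022243, chr15:11000721-11029233) lie on the plus strand and Tyr (ENSMUSG00000004651, chr7:87424771-87493512) on the minus strand, with no overlapping gene in the annotation.

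TCATGTG, an E-box with a flanking T, is the core of the longer M-box of pigment genes. It was searched on both strands from 250 bases before to 50 bases after the RefSeq start (GRCm38.p6) of the 4 members that matched that table, Dct, Tyr, Tyrp1 and Mitf. Pmel, Mlana and Slc45a2 matched no entry in the set of promoters used here and were not searched. The 3 enzyme genes hold TCATGTG and Mitf holds none in its 3 entries. Over 32851 promoters of 300 bases 3.772% hold it, 14.15% hold the shorter CATGTG that it contains, and 7.15% hold CACGTG, which is in none of the 4 members. The sequences below show the 30 bases around each match, 5′ to 3′ on the strand of the gene, with the match in capitals, since this match is what the 3 enzyme genes have in common.
Dct, chr14:118052380-118052409, 151 bases before the start: gtgcacttagggTCATGTGctaacaaagag
Dct, opposite orientation, chr14:118052461-118052490, 232 bases before the start: gcttggctgggaCACATGAgcccaataaag
Tyr, chr7:87493517-87493546, 22 bases before the start: agaaaaagttagTCATGTGctttgcagaag
Tyrp1, chr4:80834154-80834183, 47 bases before the RefSeq start: gtggggagggagTCATGTGctgcctagtag
The Tyrp1 window lies within the gene as GENCODE places its start, and the Dct and Tyr windows lie upstream of theirs. The match and its neighbours, GTCATGTGCT, are the same 10 bases in all 3 genes and occur in 61 promoters, 0.186% of the total. This longer run was read off the members after the match had been found, and a match is a description of the letters and not a measured site.

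Cells were assigned from marker genes, since the files hold no annotation. A cell was called melanoma when it had at least 20 UMIs and 1000 CPM of Pmel and passed no immune gate, and it was given an immune class, written as "like", when the markers of that class were clearly highest. A gate on Pmel left 23 cells, 0.366% (exact binomial interval 0.232 to 0.549) of the library labelled Irg1+/+, and 4 cells, 0.0690% (0.0188 to 0.177) of the library labelled Irg1-/-. Pmel chose these cells, so its level in them is a description. With mitochondrial UMIs under 5% the shares were 0.243% (0.133 to 0.407) and 0.0181% (0.000459 to 0.101). The lowest cells inside the gate had 20 and 23 Pmel UMIs. Outside it, 8 cells of the library labelled Irg1+/+ had 10 to 63 Pmel UMIs, and 3 of the library labelled Irg1-/- had 11 to 13.

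The 23 and 4 melanoma cells carried all 7 members at high levels and held 67.0% and 39.7% of all member UMIs in their libraries. Dct, which turns dopachrome into a carboxylated intermediate, had 11184 CPM in the library labelled Irg1+/+ and 11353 CPM in the library labelled Irg1-/-. Tyrp1 had 6301 and 4276 CPM, and Pmel 4216 and 5100 CPM. Mlana had 1281 and 1396 CPM, Mitf 1249 and 1153 CPM, Slc45a2 1091 and 1197 CPM, and Tyr, the enzyme of the first steps of melanin synthesis, 871 and 1049 CPM. Without Mitf, the sum of the other 6 was 24944 CPM (24632 to 25259) and 24371 CPM (23478 to 25289), and the log2 ratio of the library labelled Irg1-/- over the other was −0.03 (−0.09 to 0.02). Among single members the ratio was farthest from 0 for Tyrp1, at −0.56 (−0.69 to −0.43), with Pmel at 0.27 (0.15 to 0.40). Both change without 1 of the 4 cells, which had 41455 UMIs and the lowest level of each gene. It had 1447 CPM of Tyrp1 and 2002 CPM of Pmel, against medians of 5997 and 5696 CPM. Leaving it out raises both levels in that library, which brings the Tyrp1 ratio nearer to 0 and takes the Pmel ratio farther from 0. All intervals here and below are 95% intervals that cover counting error only, and with 4 cells in one library they do not cover the spread between cells.

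That spread was wide. Dct ran from 5190 CPM over a median of 12857 to 19499 CPM in the 23 cells, and was 4457, 11054 and 12261 CPM at the lowest, median and highest of the 4 cells. Mitf ran from 17.1 over 1382 to 3081 CPM in the 23 cells, and from 140 over 827 to 2435 CPM in the 4. Tyr ran from 49.4 over 753 to 2233 CPM, and from 458 over 760 to 1680 CPM. For every member the ranges of the libraries overlapped. Among the 23 cells 1 had no Mlana UMI, and no other member was at 0 in any melanoma cell of either library.

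**Figure D1:**
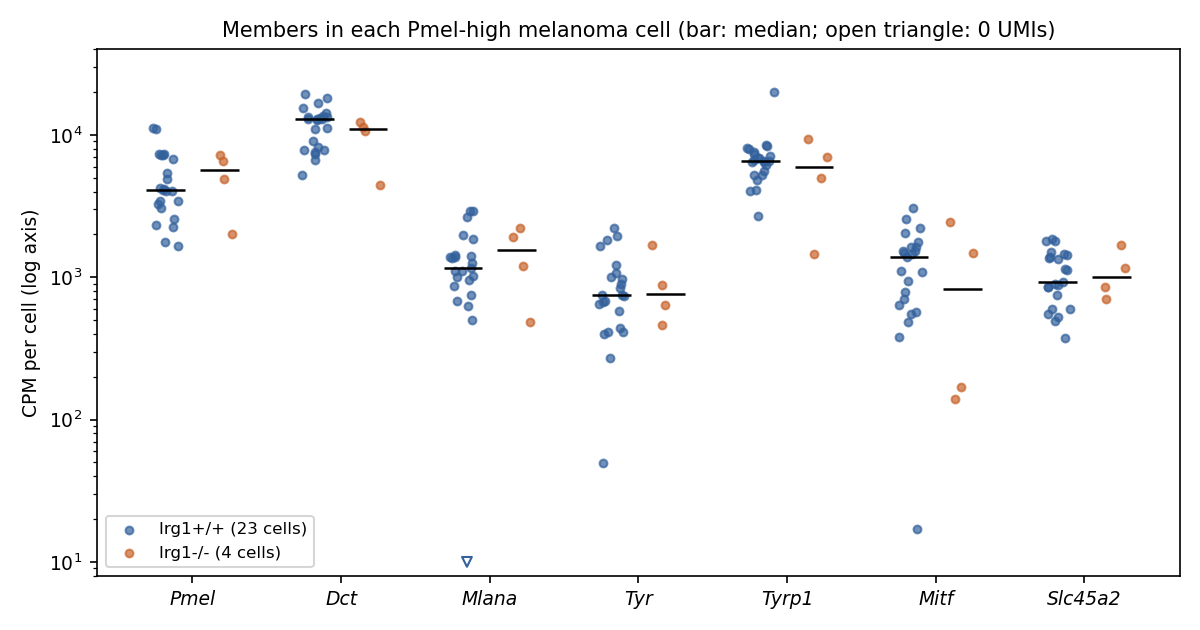
Level of each member in each of the 23 (library labelled Irg1+/+, blue) and 4 (library labelled Irg1-/-, orange) Pmel-high melanoma cells, in CPM per cell on a log axis, with bars at the median and an open triangle for 0 UMIs. The ranges of the libraries overlap for every member, Dct lies between 4457 and 19499 CPM, and Mitf has the lowest single cells with a UMI, at 17.1 and 140 CPM.

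Melanoma cells were deep. Their median was 45641 UMIs (1810 to 82932) and 7186 genes in the library labelled Irg1+/+, and 31479.5 UMIs (4712 to 47632) and 6369.5 genes in the other, with 4.41% and 6.02% mitochondrial UMIs. The sort gene Ptprc, which encodes CD45, stood at 180 and 165 CPM in them, with medians of 8 and 4.5 UMIs per cell, against 2042 and 2101 CPM in lymphocyte-like cells. The 8 macrophage markers summed to 1328 and 1440 CPM in melanoma cells, none at 0 and Apoe highest at 533 and 598 CPM, against 10953 and 11062 CPM in macrophage-like cells. The 6 T cell markers summed to 389 and 304 CPM, none at 0. Whether a second cell shared a well with any of them was not tested; doublets were kept and no caller was run. A further cell in each library passed the Pmel gate and an immune gate, mature DC-like with 25 Pmel UMIs and mast cell-like with 206, and both were left out of all classes.

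Against lymphocyte-like cells, all 6 members other than Pmel, which chose the cells, were at least 10-fold higher in melanoma cells of both libraries, beside 7.12% of 14204 genes in the library labelled Irg1+/+ and 14.5% in the library labelled Irg1-/-. The folds ran from 75.3 for Mitf to 414 for Tyr in the library labelled Irg1+/+, and from 113 for Mitf to 1563 for Tyr in the other. For the 5 members without Mitf and without Pmel, the gene of the gate, the log2 ratio was 7.30 (7.22 to 7.38) and 9.31 (9.12 to 9.51). The denominators differ: the lymphocyte-like level of these 5 was 132 CPM in one library and 30.3 CPM in the other, and with Pmel added 169 and 39.1 CPM.

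In the library labelled Irg1+/+ the 6 members stood at nearly one level in every immune class. T cell-like cells had 170 CPM, NK cell-like cells 161 CPM and B cell-like cells 210 CPM. Monocyte-like cells had 157 CPM, nonclassical monocyte-like cells 163 CPM, macrophage-like cells 197 CPM, neutrophil-like cells 208 CPM and eosinophil-like cells 170 CPM. Among dendritic cells, cDC1-like cells had 174 CPM, cDC2-like cells 161 CPM, mature DC-like cells 175 CPM and pDC-like cells 181 CPM. The highest of these 12 classes was 1.34-fold over the lowest, and the intervals of neighbours in this order overlapped. Macrophage-like cells were the only one of these classes whose interval against all lymphocyte-like cells left out 0, with a log2 ratio of 0.22 (0.12 to 0.31), while dendritic-like cells as a group were at 0.01 (−0.08 to 0.11). Both statements depend on a choice. Without cells of at least 10 UMIs of the 6 members, the difference of monocyte-like from lymphocyte-like cells was −16.0 CPM (−31.7 to −0.305), and with TMM scaling in place of total UMIs the ratio of dendritic-like cells, for all 7 members, went from 0.06 to 0.29 (0.20 to 0.38). Macrophage-like cells were 27.6 CPM (15.9 to 39.3) above the 169 CPM (162 to 177) of lymphocyte-like cells.

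The library labelled Irg1-/- had a lower value in every immune class (in mast cell-like cells with an interval of the ratio that reached 0), and its macrophage-like cells stood above the others. T cell-like cells had 41.9 CPM, NK cell-like cells 34.8 CPM and B cell-like cells 20.2 CPM, the last from 5 UMIs. Monocyte-like cells had 39.8 CPM, nonclassical monocyte-like cells 30.1 CPM, neutrophil-like cells 30.6 CPM and eosinophil-like cells 65.6 CPM, whereas macrophage-like cells had 117 CPM. The dendritic classes had 52.9 CPM (cDC1-like), 40.3 CPM (cDC2-like), 60.9 CPM (mature DC-like) and 38.2 CPM (pDC-like), and mast cell-like cells 80.2 CPM from 29 cells. The log2 ratio over lymphocyte-like cells was 1.59 (1.40 to 1.78) in macrophage-like cells and 0.03 (−0.26 to 0.31) in monocyte-like cells. It was 0.64 (0.34 to 0.93) in mature DC-like cells and 0.44 (0.11 to 0.76) in cDC1-like cells. Macrophage-like cells exceeded lymphocyte-like cells by 78.2 CPM (69.2 to 87.3), a wider gap in absolute terms than the 27.6 CPM of the other library.

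**Figure D2:**
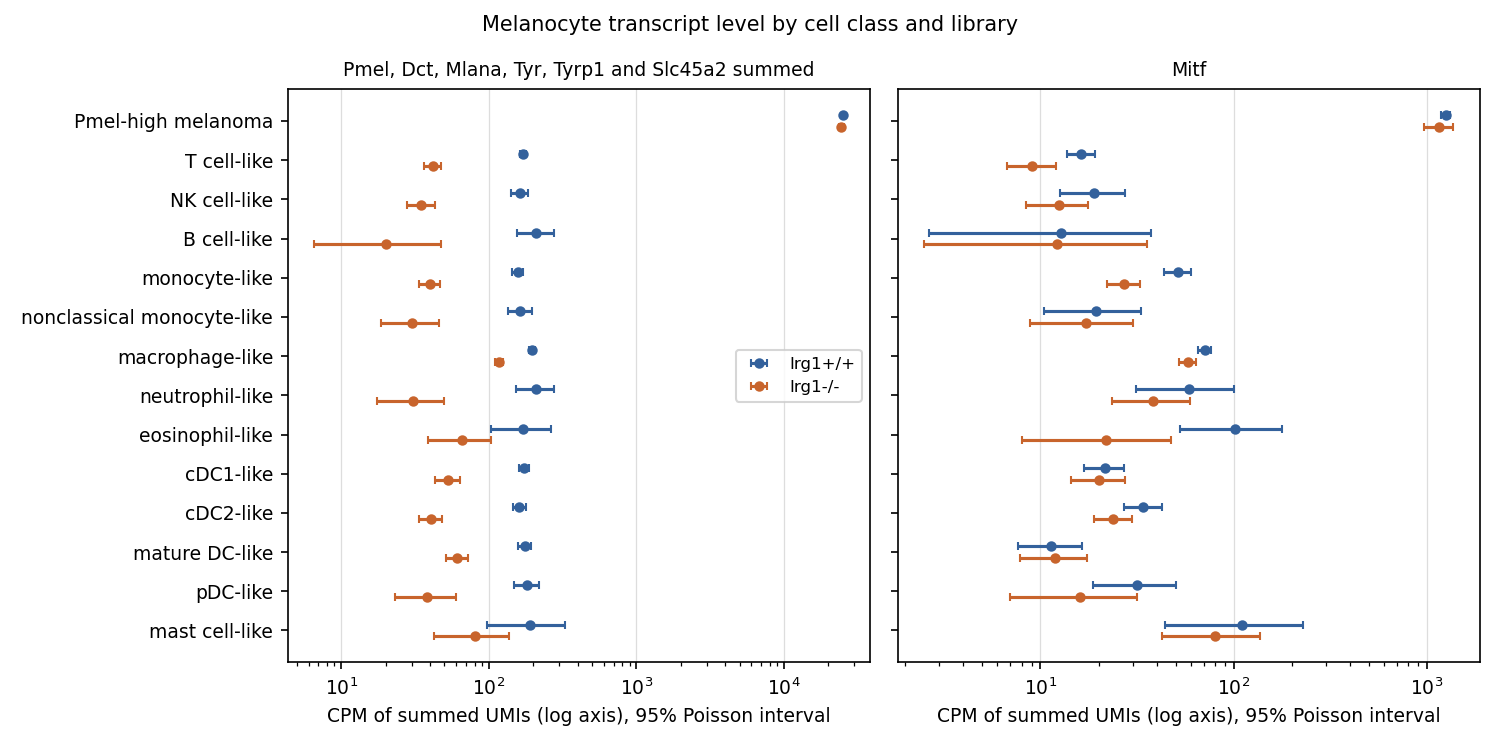
Level by cell class in the libraries labelled Irg1+/+ (blue) and Irg1-/- (orange), in CPM of summed UMIs on a log axis with exact 95% Poisson intervals; the left panel sums the 6 members without Mitf and the right panel shows Mitf. On the left the immune classes lie between 157 and 210 CPM in the library labelled Irg1+/+ (mast cell-like cells, with 12 cells, at 189) and between 20.2 and 117 CPM in the library labelled Irg1-/-, while on the right macrophage-like and mast cell-like cells lie above T cell-like cells in both.

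Read gene by gene, the libraries differed in how many members were raised in phagocytes. In phagocytes (neutrophil-, eosinophil-, monocyte-, nonclassical monocyte- and macrophage-like cells together), 1 of 7 members, Mitf, was at least 2-fold over lymphocyte-like cells in the library labelled Irg1+/+, where 15.8% of genes were. For the library labelled Irg1-/- it was 5 of 7, all but Pmel and Mlana, beside 16.8% of genes. Without cells of at least 10 UMIs of the 6 members it was 4 of 7 beside 17.7%, as Dct went from 2.06-fold to 1.62-fold, and in the library labelled Irg1+/+ still 1 of 7 beside 15.8%. In macrophage-like cells alone the counts were 1 of 7 beside 15.5% and 6 of 7, all but Mlana, beside 17.1%, the latter also 6 of 7 beside 16.8% without those cells, with Pmel at 2.02-fold and Dct at 2.11-fold. Tyrp1 was 30.4 CPM in macrophage-like and 7.48 CPM in lymphocyte-like cells of the library labelled Irg1-/-, a log2 ratio of 2.02 (1.61 to 2.46), and Dct was 49.3 and 17.2 CPM, a ratio of 1.52 (1.24 to 1.81). Mlana was 6.86 and 4.17 CPM, a ratio of 0.72 (0.06 to 1.39). Tyr and Slc45a2 rested on 5 and 7 lymphocyte UMIs, so their ratios of 2.19 have wide intervals, 0.73 to 3.96 for Tyr and 0.96 to 3.63 for Slc45a2.

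The mix of transcripts in immune cells was near that of melanoma cells for some members and not for others. Pmel was left out of it, since the gate fixes its share in melanoma cells, and shares are of the UMIs of the 5 members without Pmel and Mitf. Dct made up 54.0% (53.3 to 54.6) in melanoma cells of the library labelled Irg1+/+, 58.3% (55.7 to 60.8) in lymphocyte-like cells, 56.6% (54.0 to 59.1) in macrophage-like cells and 55.0% (52.2 to 57.9) in dendritic-like cells. In the other library Dct made up 58.9% (56.8 to 61.0), 56.7% (50.2 to 62.9), 52.9% (49.0 to 56.7) and 55.9% (50.1 to 61.6). Its interval did not overlap that of melanoma cells in lymphocyte-like cells of the first and in macrophage-like cells of the second, and overlapped it in the other classes given. Tyr was 4.203% (3.93 to 4.49) in melanoma cells against 1.56% (0.994 to 2.34) in lymphocyte-like and 1.89% (1.26 to 2.72) in macrophage-like cells under the Irg1+/+ label. Under the other it was 5.45% (4.54 to 6.47) against 2.02% (0.660 to 4.66) and 3.003% (1.84 to 4.5999), where the intervals overlap. Tyrp1 was 30.4% (29.8 to 31.0) in melanoma cells, 26.4% (24.2 to 28.7) in lymphocyte-like cells and 28.5% (26.2 to 30.8) in macrophage-like cells of the library labelled Irg1+/+. In the other it was 22.2% (20.5 to 24.0), 24.7% (19.4 to 30.6) and 32.6% (29.0 to 36.3). Dendritic-like cells had 28.4% (25.9 to 31.0) and 29.3% (24.2 to 34.7) of Tyrp1 in the 2 libraries. Of these immune groups, only lymphocyte-like cells lay apart from melanoma cells under the Irg1+/+ label, below them. Under the Irg1-/- label macrophage-like and dendritic-like cells lay apart, above them. The melanoma shares under that label rest on 4 cells, and 1 of these held 475 of the 1309 Dct UMIs and 60 of the 493 Tyrp1 UMIs. Whether the gaps of Dct and Tyrp1 in that library hold without this cell was not tested. Mlana was 6.18% (5.85 to 6.52) in melanoma, 7.89% (6.56 to 9.39) in lymphocyte-like and 9.31% (7.87 to 10.9) in macrophage-like cells under the Irg1+/+ label. Under the Irg1-/- label it was 7.25% (6.20 to 8.40), 13.8% (9.72 to 18.7) and 7.36% (5.49 to 9.61), with macrophage-like cells level with melanoma cells. Slc45a2 was 5.26% (4.96 to 5.58), 5.85% (4.71 to 7.17) and 3.78% (2.86 to 4.88) in the library labelled Irg1+/+, apart in macrophage-like cells alone, and 6.21% (5.24 to 7.30), 2.83% (1.15 to 5.75) and 4.204% (2.81 to 6.02) in the other, with overlapping intervals. With the unassigned cells of at least 10000 CPM of the 6 members, described below, counted as melanoma cells, the shares there were 54.5% for Dct and 29.9% for Tyrp1.

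Set against the melanoma cells of the same library, each member other than Mitf was present in lymphocyte-like, dendritic-like and macrophage-like cells at around 1% or less. Small classes of the library labelled Irg1+/+ had higher values on few UMIs, such as Mlana at 3.01% (1.37 to 5.73) in B cell-like cells from 9 UMIs and Slc45a2 at 3.11% (0.846 to 7.99) in eosinophil-like cells from 4. In lymphocyte-like cells of the library labelled Irg1+/+ Pmel was at 0.898% of its melanoma level, Mlana at 0.811%, Slc45a2 at 0.706%, Dct at 0.686%, Tyrp1 at 0.551% and Tyr at 0.236%. Under the Irg1-/- label these were 0.173%, 0.298%, 0.0717%, 0.151%, 0.175% and 0.0584%. Macrophage-like cells ranged over the same 6 members from 0.337% (Tyr) to 1.13% (Mlana) in the library labelled Irg1+/+, and from 0.267% (Tyr) to 0.711% (Tyrp1) in the other. Mitf stood at 5.67% and 5.01% of the melanoma level in macrophage-like cells and at 1.33% and 0.882% in lymphocyte-like cells. The values of the library labelled Irg1-/- rest on 1 melanoma cell, which held 116 of the 133 Mitf UMIs. Without it Mitf in melanoma cells was 251 CPM in place of 1153, and macrophage-like cells were at 23.02% and lymphocyte-like cells at 4.05% of that level. Macrophage-like cells then ranged from 0.457% (Slc45a2) to 0.844% (Mlana) over the other members, with Tyr at 0.462%. Leaving out any 1 of the 23 cells of the other library kept Mitf in macrophage-like cells between 5.33% and 6.09%.

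**Figure D3:**
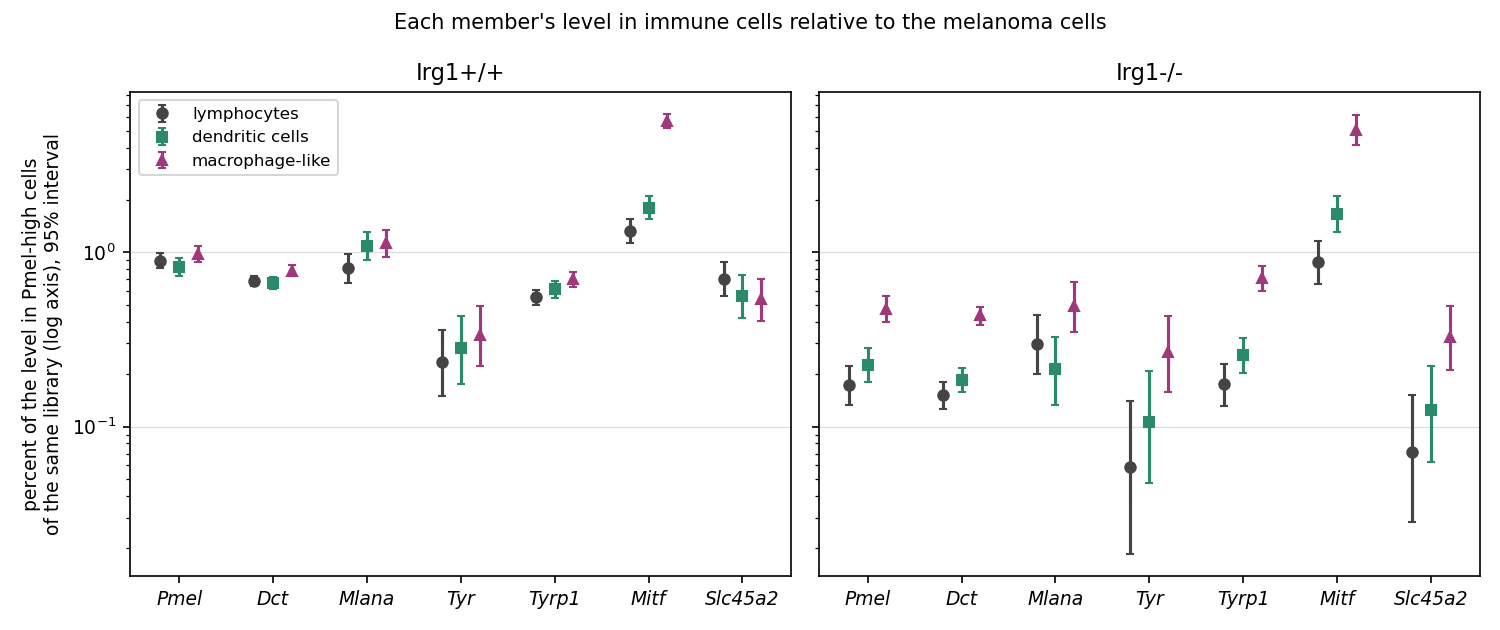
Each member's level in lymphocyte-like, dendritic-like and macrophage-like cells as a percent of its level in the Pmel-high melanoma cells of the same library (log axis, 95% intervals), with the library labelled Irg1+/+ on the left and Irg1-/- on the right. Mitf in macrophage-like cells, at 5.67% and 5.01%, lies above every other point; in the left panel the intervals of the 3 cell groups overlap for Pmel, Mlana, Tyr and Slc45a2, and in the right panel macrophage-like cells lie above lymphocyte-like cells for every member but Mlana, where the intervals overlap.

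Mitf, the transcription factor of the group, stood further above the lymphocyte-like level in macrophage-like cells than the sum of the other members did. Across the immune classes with at least 20 cells its Pearson r with the sum of the rest was 0.07 within the library labelled Irg1+/+ and 0.58 within the other, inside the range of the other members, so this correlation does not set it apart. It was lowest at 11.4 CPM in mature DC-like cells of the library labelled Irg1+/+ and at 9.10 CPM in T cell-like cells of the library labelled Irg1-/-. Macrophage-like cells had 70.8 CPM (65.5 to 76.3) and 57.8 CPM (52.4 to 63.7), against 16.6 CPM (14.3 to 19.1) and 10.2 CPM (8.10 to 12.6) in lymphocyte-like cells, log2 ratios of 2.10 (1.86 to 2.34) and 2.51 (2.16 to 2.86). Monocyte-like cells had 51.4 and 27.1 CPM, with ratios of 1.63 (1.32 to 1.95) and 1.41 (0.98 to 1.85). Mast cell-like cells had 110 CPM from 7 UMIs and 80.2 CPM from 13 UMIs, with ratios of 2.74 (1.40 to 3.81) and 2.98 (2.01 to 3.83). Among dendritic-like cells cDC2-like cells had 34.1 and 23.8 CPM, with ratios of 1.04 (0.65 to 1.43) and 1.23 (0.76 to 1.69), whereas mature DC-like cells were at −0.54 (−1.16 to 0.03) and 0.23 (−0.46 to 0.87). In both libraries, then, macrophage-, monocyte-, neutrophil-, mast cell- and cDC2-like cells were above lymphocyte-like cells with intervals that left out 0, and in the library labelled Irg1+/+ so were eosinophil-like and pDC-like cells and, in the other, cDC1-like cells.

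The same is seen when Mitf is counted per UMI of the other members. Melanoma cells had 5.01 Mitf UMIs per 100 UMIs of the 6 members in the library labelled Irg1+/+ and 4.73 in the other. Macrophage-like cells had 35.9 and 49.3, and lymphocyte-like cells 9.77 and 26.02. Without the cell that held most Mitf UMIs, melanoma cells of the library labelled Irg1-/- had 1.23. With the part of Mitf that the melanoma ratio would carry taken off, 60.9 CPM (55.7 to 66.5) and 52.3 CPM (46.8 to 58.1) were left in macrophage-like cells, 43.5 CPM (35.8 to 52.2) and 25.2 CPM (20.2 to 31.0) in monocyte-like cells, and 8.07 CPM (5.77 to 10.6) and 8.32 CPM (6.25 to 10.8) in lymphocyte-like cells. Without that cell 56.4 and 9.69 CPM were left in macrophage-like and lymphocyte-like cells of the library labelled Irg1-/-. In lymphocyte-like and macrophage-like cells, and in the T, NK and B cell-like cells taken singly, the remainders of the libraries had overlapping intervals, unlike the levels of the 6 members. In monocyte-like cells they did not overlap, nor in all phagocytes together, at 54.6 CPM (50.5 to 59.0) and 40.6 CPM (37.0 to 44.5). Overlapping intervals do not show equal values. For Mitf as counted, the log2 ratio of the library labelled Irg1-/- over the other in macrophage-like cells was −0.29 (−0.47 to −0.11).

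Between the libraries, the 6 members were 4.33-fold (3.85 to 4.89) lower in lymphocyte-like cells of the library labelled Irg1-/-, a log2 ratio of −2.12 (−2.29 to −1.94). Singly, 6 of 7 members were at least 2-fold lower there, all but Mitf, beside 6.07% of genes. The log2 ratios were −2.16 (−2.43 to −1.90) for Dct, −2.22 (−2.63 to −1.82) for Tyrp1, −2.10 (−2.48 to −1.74) for Pmel and −0.70 (−1.09 to −0.32) for Mitf. The ratio of the 6 members was −1.98 in monocyte-like cells, −1.80 in dendritic-like cells and −0.75 (−0.87 to −0.63) in macrophage-like cells, where Mitf was at −0.29 (−0.47 to −0.11).

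The amount of melanoma RNA captured in cells moved in the same direction. The 23 melanoma cells of the library labelled Irg1+/+ held UMIs of the 6 members amounting to 580 CPM of the whole library, and the 4 cells of the library labelled Irg1-/- to 79.6 CPM, a ratio of 7.29. With the cell that passed both gates added to each, the values were 586 and 112 CPM, a ratio of 5.25. The number of melanoma cells differed 5.75-fold, or 4.8-fold with those 2 cells, and the lymphocyte-like level 4.33-fold. Counting also the unassigned cells of at least 10000 CPM of the 6 members that are described below, and not the cells of both gates, gave 50 and 5 cells, a ratio of 10, and shares of 0.796% (0.591 to 1.05) and 0.0863% (0.0280 to 0.201). The UMIs they held then came to 650 and 80.4 CPM of the libraries, a ratio of 8.08. With mitochondrial UMIs under 5%, cells of the Pmel gate alone made up 0.243% and 0.0181%. These are single values from 1 library each, so a relation between them cannot be computed, and genotype, pool of mice and preparation cannot be told apart.

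**Figure D4:**
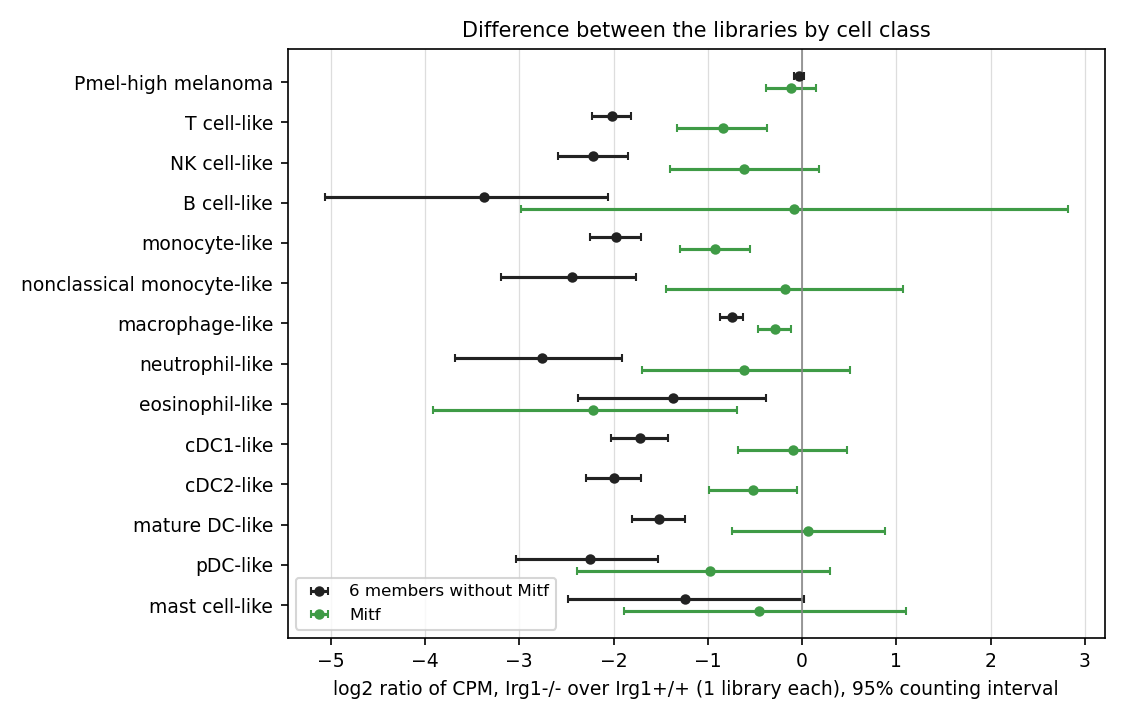
Log2 ratio of CPM in the library labelled Irg1-/- over the library labelled Irg1+/+ by cell class, with 95% counting intervals, for the 6 members summed (black) and Mitf (green). Melanoma cells are at −0.03 for the 6 members while lymphocyte-like classes are near or below −2; macrophage-like cells are at −0.75, and Mitf is nearer to 0 than the 6 members in every immune class but eosinophil-like cells.

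The background of lymphocyte-like cells was highest in the shallowest cells of the library labelled Irg1+/+ and near one level in the rest. The 6 members had 231 CPM (185 to 286) in cells under 2000 UMIs there, then 163 (148 to 179), 165 (149 to 183) and 170 CPM (160 to 181) in cells of 2000 to 5000, 5000 to 10000 and over 10000 UMIs, so that the interval of the first bin lies above the others. The same bins had 41.9, 32.8, 43.0 and 40.9 CPM in the library labelled Irg1-/-. Macrophage-like cells had 242, 336 (275 to 406), 197 and 191 CPM in these bins of the library labelled Irg1+/+. Under the Irg1-/- label they had 30.7 CPM (3.72 to 111) from 2 UMIs, then 98.2, 137 and 114 CPM. The share of cells with a UMI of the 6 members was 52.6% in lymphocyte-like and 73.0% in macrophage-like cells of the library labelled Irg1+/+, at median depths of 3693.5 and 9545 UMIs. In the other library it was 17.4% and 48.0%, at 2985 and 9508 UMIs. With every cell thinned to 2000 UMIs, and shallower cells left out (280 and 131 cells in one library, 328 and 70 in the other), the shares were 28.4% (26.2 to 30.8) and 32.6% (29.1 to 36.3), and 7.09% (5.68 to 8.72) and 15.7% (12.9 to 18.8). Mitf, thinned in the same way, was in 3.18% of lymphocyte-like and 13.99% of macrophage-like cells of the library labelled Irg1+/+, and in 1.73% and 11.8% of those of the other.

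A few cells held many of the UMIs. In macrophage-like cells of the library labelled Irg1-/-, 11 of 689 cells had at least 10 UMIs of the 6 members and held 233 of the class's 838, 27.8%. Their level had a median of 931 CPM and a highest value of 4774 CPM, and their macrophage markers summed to 11883 CPM against 11062 CPM in the whole class. Without the 11 cells the class was at 87.1 CPM, 48.0 CPM (39.8 to 56.2) above lymphocyte-like cells, a log2 ratio of 1.16 (0.96 to 1.36). Among macrophage-like cells of the library labelled Irg1+/+ 6 of 803 were of this kind and held 108 of 1879 UMIs, and without them the log2 ratio was 0.19 (0.09 to 0.28).

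Cells in no gate held more. They made up 25.7% of the library labelled Irg1+/+ and 22.5% of the other, and the 6 members had 620 CPM (602 to 639) and 73.0 CPM (66.5 to 80.0) in them. Under the Irg1+/+ label 31 of these 1614 cells had at least 10 UMIs of the 6 members and held 3241 of 4535, 71.5%. Of the 31 cells 17 had under 2000 UMIs in all, 29 had fewer than 20 Pmel UMIs, and 27 were at or above 10000 CPM of the 6 members. Of their UMIs of the 6 members, Dct made up 54.4% and Pmel 8.05%. In the melanoma cells of that library, Dct made up 44.8% and Pmel 16.9% on the same base. The shares of Dct given earlier left Pmel out and are on another base. The melanoma cells passed the gate on Pmel and the 31 cells did not, so both shares depend on that choice. The deepest of the 31 cells had 66840 UMIs, 706 of Dct and 63 of Pmel, and missed the gate on Pmel CPM. Without the 31 cells the unassigned cells were at 182 CPM, inside the range of the immune classes. Only 4 unassigned cells of the library labelled Irg1-/- had at least 10 such UMIs.

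**Figure D5:**
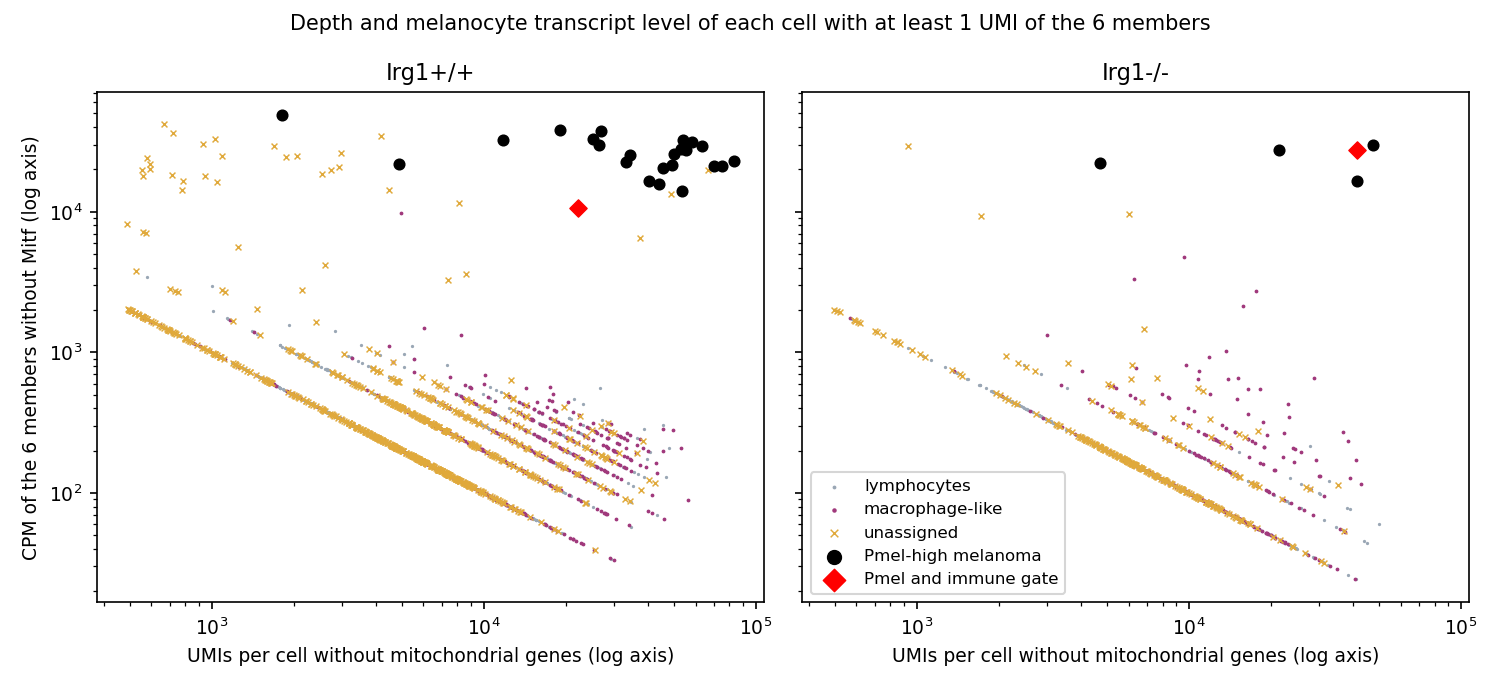
Each cell with at least 1 UMI of the 6 members by depth (UMIs without mitochondrial genes) and level (CPM of the 6 members), both on log axes, for lymphocyte-like, macrophage-like and unassigned cells, Pmel-high melanoma cells and the cell of each library that passed both gates; the diagonal lines are cells with 1, 2, 3 and more UMIs. In the library labelled Irg1+/+ 27 unassigned cells at or above 10000 CPM lie level with the melanoma cells, mostly at lower depth, and in the library labelled Irg1-/- 11 macrophage-like cells with at least 10 UMIs lie above the diagonals, up to 4774 CPM.

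Other genes of the melanocyte program were read from a list of 33, of which 29 had at least 20 UMIs. Of these, 20 were at least 10-fold higher in melanoma than in lymphocyte-like cells in the library labelled Irg1+/+, beside 7.12% of all genes tested, and 21 in the other, beside 14.5%, 20 of them in both. The median fold was 86.5 and 146, beside 1.12 and 1.53 over all genes tested. Sox10, a factor that acts upstream of Mitf, had 510 and 460 CPM in melanoma cells. Ptgds, the prostaglandin D2 synthase of the list, had 2224 and 2741 CPM. Gpnmb, a melanosome glycoprotein that macrophages also make, had 4353 and 7823 CPM in melanoma cells and 498 and 298 CPM in macrophage-like cells. In both libraries 5 genes were higher in the highest of the 13 immune classes than in melanoma cells, Lef1, Kit, Ednrb, Rab32 and Qpct, beside 67.8% of all genes tested. Kit, the receptor of mast cells, had 694 and 598 CPM in mast cell-like cells. Atp7a joined them in the library labelled Irg1-/-, at 107 CPM (96.6 to 118) in monocyte-like and 86.7 CPM (41.6 to 159) in melanoma cells. The latter rests on 10 UMIs and the intervals overlap. Singly, 77.5% of genes met this in the library labelled Irg1+/+ and 76.1% in the other.

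Outside the list, the genes ranked highest by fold of melanoma over lymphocyte-like cells in both libraries were Ano3, Hhipl1, Zfp979, Alx1 and Cavin2. Of these, 4 had no UMI in lymphocyte-like cells of either library and Cavin2 had 1 in the library labelled Irg1+/+, so their order depends on the pseudocount of 0.5 UMIs and no fold is given. Hhipl1 had 3 UMIs in melanoma cells of the library labelled Irg1-/-. The most abundant, Ano3 and Cavin2, had 58.2 CPM each in melanoma cells of the library labelled Irg1+/+ and 78.1 and 69.4 CPM in those of the other. Over 26 class profiles of both libraries, which share libraries and depth, genes whose log2(CPM + 1) was most like the sum of the 7 members included Ptgds (Pearson r 0.96), Cck (0.92), Adamts1 (0.89) and Tspan10 (0.89). Over the 25 immune profiles they were Ptgds (0.88), Gm47283 (0.86), Cck (0.78), Pmp22 (0.76) and Gcsh (0.74). These profiles pool the libraries, whose levels of the 6 members in lymphocyte-like cells were 169 and 39.1 CPM. Within the 12 immune profiles of the library labelled Irg1+/+ the same 5 genes had r of 0.40, −0.10, 0.38, 0.59 and 0.18, and within the 13 of the other 0.76, 0.47, 0.51, 0.90 and 0.56. The members themselves, each against the sum of the rest, ran from 0.19 (Tyr) to 0.90 (Tyrp1) over the 25 pooled profiles, but from −0.59 (Tyr) to 0.51 (Tyrp1) within the library labelled Irg1+/+ and from 0.03 (Tyr) to 0.78 (Dct) within the other.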

How the data were processed

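The values deposited by the authors are unnormalized UMI counts, made with fastp, UMI-tools and STAR against the Ensembl (version 100) mouse reference; the submitters' processing notes also name CASAVA 1.8 and Seurat. Here cells were kept when more than 200 genes were detected and mitochondrial UMIs made up less than 10%, and the 13 mitochondrial genes were left out. Markers were scored as the mean z of log2(CPM/100 + 1); an immune class needed a score of at least 0.5, a margin of 0.25 and 2 markers with a UMI. Of 12078 cells, 2003 (16.6%) lay within 0.1 of a score threshold or margin. UMIs were summed per class and library. CPM have exact Poisson, shares exact Clopper-Pearson and ratios conditional binomial intervals. Folds across genes used a pseudocount of 0.5 UMIs and genes with at least 20 UMIs. Named genes are the members, the listed program genes, and the 5 highest by likeness and by fold. An item among the likeness values is not reported here. The members and lists were chosen with earlier results of these data known, and the scoring rule, with Cadm1 dropped from the cDC1 gate, was set after the data had been seen. The scripts were tested on simulated data and ran under Python 3.11.15 with numpy 2.4.6, pandas 2.3.3 and scipy 1.17.1. TMM factors came from edgeR 4.0.16 under R 4.3.3. Positions are from GENCODE (GRCm38), promoters from RefSeq. No test was possible with 1 library per genotype.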

Additional observations from a re-analysis of the deposited data

Results flagged for a closer look

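Cells with at least 10% mitochondrial UMIs, which enter no comparison, held the 7 members at 773 CPM (647 to 917) over 124 cells of the library labelled Irg1+/+ and at 358 CPM (261 to 479) over 102 cells of the library labelled Irg1-/-. Both values were looked at again because they lie above the lymphocyte-like background of the same library, 186 and 49.3 CPM. They rest on 132 and 45 UMIs. Dct was at 357 and 79.5 CPM in these cells, and Ptprc at 1118 and 1375 CPM.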

How the results depend on the processing

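Of 153 values under 19 alternatives, 125 lay inside the counting interval of the value reported or, for counts of genes, within 1.5 times of it, and no called value changed sign. The log2 ratio of the 7 members in melanoma over lymphocyte-like cells, 7.14 and 9.02 in the libraries labelled Irg1+/+ and Irg1-/-, was 6.95 and 8.38 with cells chosen by 3 of 12 lineage genes, 7.06 and 8.36 with under 5% mitochondrial UMIs, 7.03 and 8.65 with TMM scaling, and 7.30 and 9.31 with the 5 members without Pmel and Mitf. In the library labelled Irg1+/+ it was also 7.22 as a mean over cells and 7.23 with cells thinned. In the other it was 8.78 without the deepest 5% of cells and 9.28 without Mitf. The ratio of phagocytes, 0.43 and 1.38, was 0.64 and 1.58 with TMM scaling and 0.14 and 1.10 without Mitf, and in the library labelled Irg1-/- 1.16 as a mean over cells and 1.17 without cells of at least 10 member UMIs. The ratio of dendritic-like cells, 0.06 and 0.47, was 0.29 and 0.68 with TMM scaling; in the library labelled Irg1+/+ it was 0.25 with Pmel of at least 50 UMIs, 0.25 with cells of both gates kept as immune and 0.22 as a mean over cells. The lymphocyte-like ratio between libraries, −1.92, was −2.12 without Mitf. The share of melanoma cells in the library labelled Irg1-/- was 0.0181% with under 5% mitochondrial UMIs, since 1 of 4 cells was left, and in the library labelled Irg1+/+ it was 0.796% with unassigned cells of at least 10000 CPM of the 6 members added. Without the minimum of 20 UMIs, 15701 and 18902 genes were at least 10-fold, against 1011 and 2058, as genes with no UMI in either group then pass through the pseudocount. Otherwise the cause of these shifts was not tested. The alternatives without Mitf, without Pmel and Mitf, without cells of many member UMIs, with unassigned cells added, without shared barcodes and with cells of both gates as melanoma were chosen after seeing the data. No paired analysis was possible because each genotype has 1 library. The main limits are that 4 melanoma cells set the reference of the library labelled Irg1-/-, that cells near a gate can change class, and that lymphocyte-like cells held 23 and 5 UMIs of Tyr and, in the library labelled Irg1-/-, 7 of Slc45a2.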
